A study of Bos taurus with 4 samples.

Results

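The solute carrier genes were represented by 432 of the 63845 noncoding transcripts measured in 4 skeletal muscles of cattle. A transcript was taken where the gene named in its identifier begins with SLC and a digit, or with SLCO, whatever its class, and the choice used no measured value. The 432 transcripts lay at 118 genes and 405 loci. Of these transcripts, 392 lay within an intron of the carrier gene and 40 overlapped one of its exons on the opposite strand (antisense). Intergenic transcripts carry no gene name and could not be taken. The muscles were longissimus thoracis, of the back (written Longissimus thoraci in the labels), a scapula muscle, of the shoulder, gluteus, which is a rump muscle, and intercostal muscle, which lies between ribs. All came from female Hereford cattle of 18 months that had been fattened together on maize silage, and the labels name no treatment. For each muscle, total RNA of 3 animals was pooled into 1 library, so no muscle has a replicate, no difference could be tested against animal-to-animal spread, and each is described by size and counting error alone. Levels of the carriers' own messenger RNAs were not analysed here.

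Solute carriers are membrane proteins that move sugars, amino acids, ions, metals, nucleotides and organic acids across the cell surface and the membranes of organelles, either along the gradient of the solute or by coupling it to the gradient of an ion. Families are numbered by sequence, and the largest, SLC25, sits in mitochondria and joins the metabolism of the cytosol to that of the matrix. In muscle fibres, carriers bring in glucose, creatine, carnitine, amino acids and fatty acids, pass lactate between fibres and blood, supply phosphate to the ATP synthase and remove calcium and protons after contraction. Of the 118 genes, 2 match the naming rule without encoding a carrier, namely SLC9A3R1, a scaffold protein that binds transporters, and SLC7A6OS, a gene named for lying opposite SLC7A6, with 1 intronic transcript each. SLC3A1 and SLC3A2 encode the heavy chains that escort amino acid carriers to the surface.

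Levels are given as FPKM, the fragments on a transcript divided by its length and by the library's total, and a range in parentheses is the exact 95% Poisson interval of the reads behind a value. The interval covers counting error only. Read numbers were recovered from the values as the smallest whole numbers that fit, so each is a lower bound. The library totals lay between 1107493 in gluteus and 2132255 in longissimus thoracis. No source used here says what these totals count, and the recovered reads come to 102.6% of the total in gluteus, 100.9% in intercostal muscle, 98.96% in longissimus thoracis and 100.01% in scapula muscle. A transcript absent from a library's table is called not listed, and no fold is printed for it. In the calls of higher and lower transcripts below, it is treated as having no reads in that library. Such a call can therefore rest on listing alone and is then not a measured fold. One read on a transcript of 300 nucleotides was worth 1.56 FPKM in longissimus thoracis and 3.01 in gluteus. No source used here gives the strand setting of the counting, so reads of an antisense transcript cannot be told apart from those of the carrier's messenger RNA. Whether an intronic transcript is an RNA of its own or a piece of the carrier's unspliced precursor was not tested. Of 15 genes chosen as markers of skeletal muscle, 6 had a noncoding transcript, with a summed level of 52865 FPKM in gluteus, 60684 in intercostal muscle, 29382 in longissimus thoracis and 46162 in scapula muscle. ACTA1, CKM and DES, among others, had none, so the label of the tissue can be checked only in part. Markers of other cell types, in the same order of muscles, summed to 323, 306, 33.8 and 579 FPKM for endothelium (3 of 6 genes, without PECAM1, VWF and KDR) and to 1144, 2900, 2281 and 6204 for fibroblasts and matrix (5 of 7, without COL1A2 and LUM). Those of smooth muscle and pericytes (4 of 5, without TAGLN) summed to 736, 1360.2, 905 and 1020.1. Leukocyte markers (2 of 4, without CD3E and CD68) summed to 72.2, 84.0, 88.0 and 178. Endothelial markers were thus lowest in longissimus thoracis, and those of fibroblasts and matrix lowest in gluteus and highest in scapula muscle. Their part in the carrier values was not tested. In pooled tissue, fewer cells of a type and less RNA per cell cannot be told apart.

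The carrier transcripts held 1.39% (Wilson 95% interval 1.37 to 1.41) of the recovered reads in gluteus, 1.29% (1.27 to 1.31) in intercostal muscle, 1.35% (1.34 to 1.37) in longissimus thoracis and 1.28% (1.26 to 1.29) in scapula muscle. Their share of all FPKM was 0.845%, 0.874%, 0.813% and 0.874% in the same order. The 40 antisense transcripts carried between 78.0% (scapula muscle) and 88.4% (gluteus) of the carrier reads. At SLC25A3 alone, 2 antisense transcripts took 56.2%, 52.0%, 50.5% and 51.4% of them. Both belong to 1 locus and have nearly equal read numbers, so the same reads may be counted in each. The median listed antisense transcript of a carrier stood at 65.9 FPKM in gluteus, 55.2 in intercostal muscle, 50.4 in longissimus thoracis and 58.7 in scapula muscle, beside 61.3, 60.3, 55.4 and 50.2 for antisense transcripts of other genes. The median intronic one stood at 24.3, 29.0, 27.8 and 26.7, beside 23.6, 25.6, 30.9 and 25.8. Summed, intronic transcripts of other genes reached 292215 FPKM in gluteus, 410026 in intercostal muscle, 484384 in longissimus thoracis and 520484 in scapula muscle. A low gluteus sum at intronic transcripts is therefore not particular to the carriers.

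**Figure D1:**
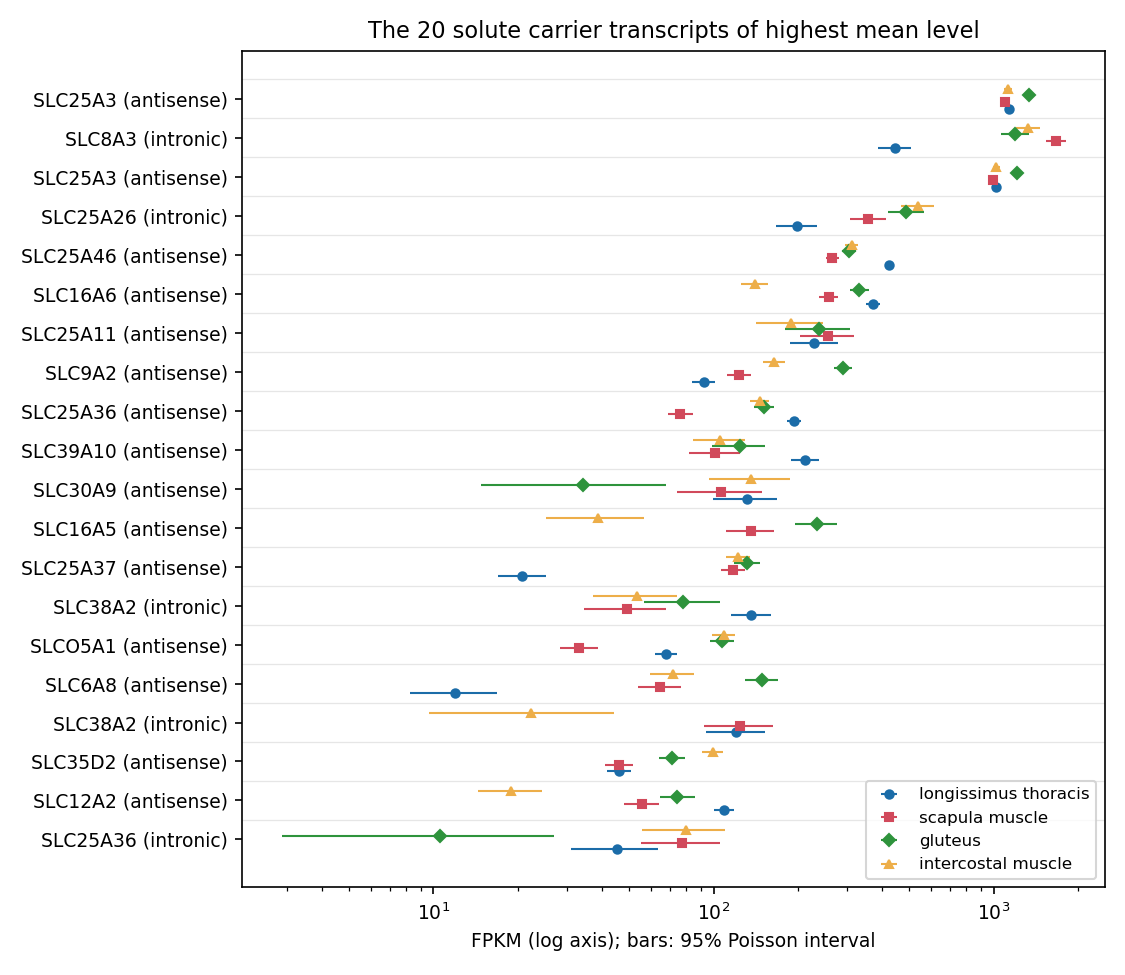
FPKM (log axis) of the 20 carrier transcripts of highest mean level in the 4 muscles, with 95% Poisson intervals as bars and no point where a transcript was not listed. The 2 antisense transcripts of SLC25A3 lie close together in all 4 muscles, between 992 and 1338 FPKM, while the intronic transcript of SLC8A3 is lowest in longissimus thoracis, at 445 FPKM.

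The mitochondrial carriers, family SLC25, had 64 transcripts at 17 genes, and their summed level ran from 4225 FPKM in scapula muscle to 4357 in intercostal muscle. Of these sums, 2088 to 2551 FPKM came from the pair at SLC25A3. Without that pair they were 1722 FPKM in gluteus, 2208 in intercostal muscle, 2201 in longissimus thoracis and 2137 in scapula muscle. SLC25A3 imports the phosphate that the ATP synthase joins to ADP. Its more abundant antisense transcript (TCONS_00204641) stood at 1338 (1299 to 1378) FPKM in gluteus, 1126 (1093 to 1159) in intercostal muscle, 1132 (1106 to 1158) in longissimus thoracis and 1096 (1066 to 1127) in scapula muscle. The other (TCONS_00198594) ran from 992 FPKM in scapula muscle to 1213 in gluteus. For the first, the gluteus interval lies above the other 3, which overlap, and gluteus was also the highest for the second.

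At another mitochondrial carrier the muscles did not separate beyond counting error. Opposite SLC25A11, which exchanges 2-oxoglutarate for malate in the malate-aspartate shuttle, the level stood at 237 (179.6 to 307) FPKM in gluteus, 189 (142 to 246) in intercostal muscle, 229 (188 to 277) in longissimus thoracis and 256 (204 to 317) in scapula muscle. These 4 intervals overlap. Opposite SLC25A46, an outer membrane protein of mitochondrial dynamics, it was 422 FPKM in longissimus thoracis and between 265 and 311 in the other muscles. Others differed more between muscles. Opposite SLC25A16 the values were 10.5 FPKM in gluteus, 37.7 in intercostal muscle, 35.7 in longissimus thoracis and 19.6 in scapula muscle, and opposite SLC25A28, an iron importer of mitochondria, they were 11.6 FPKM in gluteus, 16.5 in intercostal muscle, 3.13 in longissimus thoracis and 9.57 in scapula muscle.

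SLC25A37 (a mitoferrin), the other iron importer, was low in longissimus thoracis at all 3 of its transcripts. The antisense one stood at 131 (118 to 146) FPKM in gluteus, 122 (110.5 to 135) in intercostal muscle, 20.8 (17.0 to 25.1) in longissimus thoracis and 117 (106 to 129) in scapula muscle, so the longissimus interval lies below the other 3, which overlap. The 2 intronic ones belong to 1 locus. The first (TCONS_00236660) was not listed for longissimus thoracis and ran from 37.1 to 59.9 FPKM elsewhere, and the second had 1 read there, 1.46 (0.0369 to 8.11) FPKM, against 14.0 in gluteus, 28.3 in intercostal muscle and 59.6 in scapula muscle.

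SLC25A36, a carrier of pyrimidine nucleotides, was highest in longissimus thoracis, with 15 transcripts that summed to 295 FPKM in gluteus, 488 in intercostal muscle, 753 in longissimus thoracis and 389 in scapula muscle. Longissimus thoracis listed 12 of them and 7 were higher there by the 2-fold rule. By this rule, log2((FPKM + 1)/(median of the other 3 + 1)) is at least 1 in size, and some library has 1 FPKM or more. Of other genes' intronic and antisense transcripts, 37% were higher in longissimus thoracis by the same rule. Of its 3 antisense transcripts, the most abundant stood at 152 (139 to 165) FPKM in gluteus, 146 (135 to 158) in intercostal muscle, 194 (184 to 204) in longissimus thoracis and 76.2 (68.7 to 84.3) in scapula muscle. A second (TCONS_00002857) had 75.6 FPKM in longissimus thoracis and at most 23.5 elsewhere, whereas the last (TCONS_00007907) was highest in scapula muscle, at 61.8, and lowest in gluteus, at 18.6. The intronic TCONS_00007908 was missing from gluteus alone and ran from 15.4 FPKM in intercostal muscle to 33.7 in scapula muscle.

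Among intronic transcripts of the mitochondrial family, one of SLC25A26, which imports S-adenosylmethionine, was by far the most abundant. It stood at 488 (418 to 566) FPKM in gluteus, 536 (469 to 610.1) in intercostal muscle, 198 (166 to 234) in longissimus thoracis and 357 (306 to 414) in scapula muscle, lowest in longissimus thoracis, with overlapping intervals for gluteus and intercostal muscle. The other 5 transcripts of this gene each reached at most 68.4 FPKM, and none of them was listed for longissimus thoracis or gluteus. SLC25A13 (citrin), an aspartate and glutamate carrier, had 9 intronic transcripts, 6 listed for intercostal muscle with a sum of 231 FPKM, and none for gluteus. Its muscle relative SLC25A12 (aralar) had 3, one at 84.6 FPKM in longissimus thoracis with 1 read in scapula muscle, one at 82.7 in intercostal muscle alone and one at 45.8 in scapula muscle alone. Gluteus listed none of the 3. Of 26060 intronic transcripts of other genes, gluteus listed 7321, intercostal muscle 10043, longissimus thoracis 12121 and scapula muscle 15114. The 9 transcripts of SLC25A21, a carrier of oxodicarboxylates, summed to 4.53 FPKM in gluteus, 25.7 in intercostal muscle, 116 in longissimus thoracis and 168 in scapula muscle. SLC25A17, a peroxisomal carrier of cofactors, had 6, with sums of 109 FPKM in gluteus, 27.7 in intercostal muscle, 165 in longissimus thoracis and 78.5 in scapula muscle. The gluteus sum rests mostly on 1 transcript with 3 recovered reads, which is a lower bound. SLC25A14, an uncoupling protein relative, had an antisense transcript at 22.4 FPKM in longissimus thoracis and 44.2 in scapula muscle, and gluteus and intercostal muscle did not list it.

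**Figure D2:**
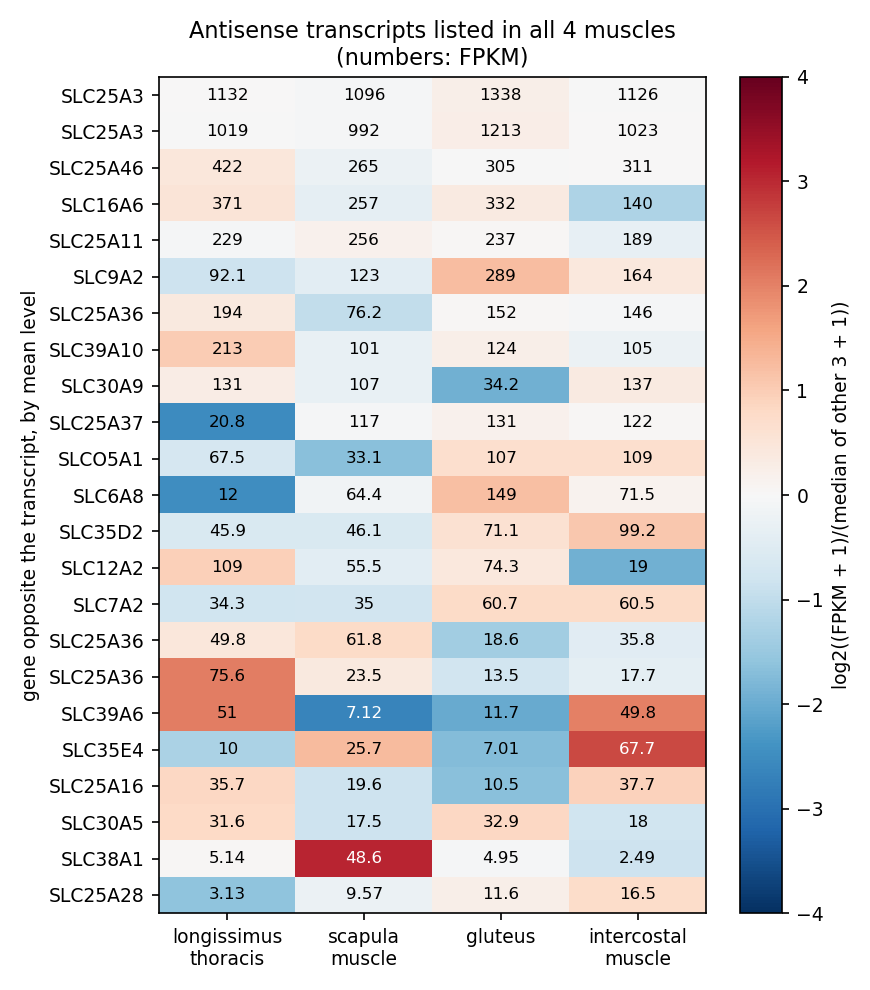
Antisense transcripts of carrier genes that were listed in all 4 muscles, 23 in number, ordered by mean level, with the FPKM in each cell and the colour giving log2((FPKM + 1)/(median of the other 3 + 1)). SLC25A3, SLC25A11 and SLC25A46 are pale throughout, while SLC25A37 and SLC6A8 are low in longissimus thoracis, SLC38A1 is high in scapula muscle and SLC12A2 is low in intercostal muscle.

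The families that exchange or cotransport ions held the most transcripts, 163 at 22 genes, of which 155 were intronic. Of all carrier genes, SLC8A3 had the most transcripts with 27, followed by SLC9A9 with 24, SLC4A7 with 20 and SLC4A4 with 19, all of this group, and by SLC20A2 and SLC25A36 with 15 each. SLC8A3 is a sodium-calcium exchanger of skeletal muscle and brain that removes calcium from the cytosol. One of its intronic transcripts (TCONS_00015861) stood at 1193 (1063 to 1335) FPKM in gluteus, 1325 (1199 to 1462) in intercostal muscle, 445 (387 to 508) in longissimus thoracis and 1665 (1532 to 1806) in scapula muscle. The longissimus interval lies below the other 3, and the scapula interval above them. None of the other 26 transcripts passed 89.3 FPKM in any muscle.

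Those 26 varied between muscles without a common order. Gluteus listed 16 of them with a median of 42.2 FPKM, intercostal muscle 8 with 27.2, longissimus thoracis 14 with 35.4 and scapula muscle 15 with 31.8. By the 2-fold rule, 12 of the 27 were higher and 4 lower in gluteus, 4 and 12 in intercostal muscle, 11 and 9 in longissimus thoracis, and 10 and 7 in scapula muscle. Of other genes' intronic and antisense transcripts, 18.2%, 26.8%, 37% and 45.1% were higher in these muscles and 25.5%, 19.3%, 21.2% and 11.8% lower. Gluteus alone listed TCONS_00024853, at 83.5 (47.7 to 136) FPKM. The transcript TCONS_00024858 had 69.7 (43.7 to 106) FPKM in gluteus and 2 reads in longissimus thoracis. A further one, TCONS_00024860, stood at 74.7 FPKM in gluteus and 35.5 in intercostal muscle, and longissimus thoracis and scapula muscle did not list it. In scapula muscle, TCONS_00019902 reached 77.8 (55.1 to 107) FPKM against 8.39 in gluteus, and TCONS_00019904 reached 89.3 against 67.2 in longissimus thoracis. The transcript TCONS_00015862 had 20.3 FPKM in intercostal muscle, 30.4 in longissimus thoracis and 40.4 in scapula muscle, and gluteus did not list it.

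**Figure D3:**
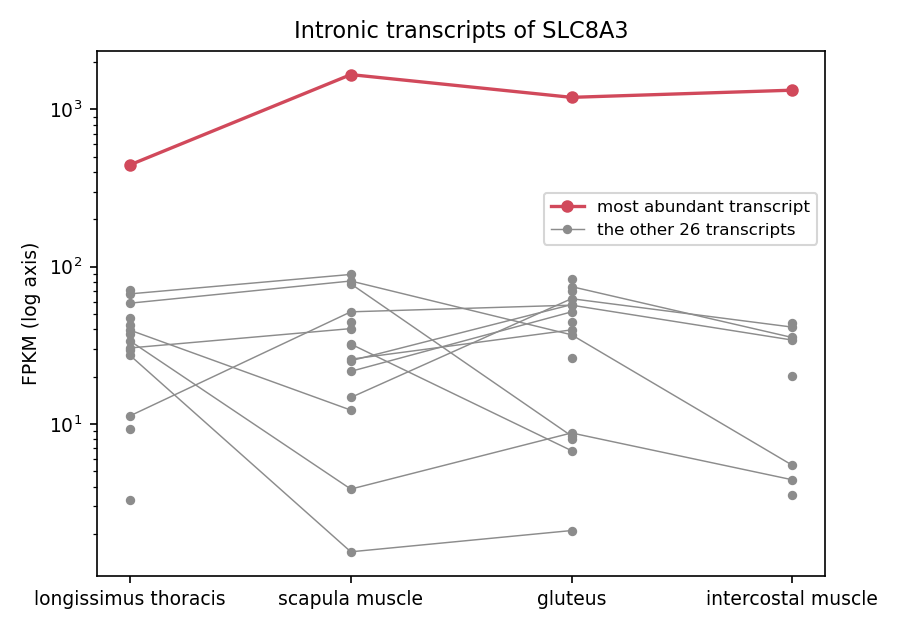
FPKM (log axis) of the 27 intronic transcripts of SLC8A3 in the 4 muscles, each point a listed value and each line joining neighbouring muscles on the axis where both list the transcript. The most abundant transcript runs from 445 to 1665 FPKM, and the other 26 stay at or below 89.3 FPKM.

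SLC8A1, the sodium-calcium exchanger best known from the heart, had 12 intronic transcripts, and none was listed in all 4 muscles. They summed to 92.5 FPKM in gluteus, 84.0 in intercostal muscle, 146 in longissimus thoracis and 213 in scapula muscle. One of them (TCONS_00026480) reached 55.0 (39.98 to 73.9) FPKM in longissimus thoracis and was not listed elsewhere, and another (TCONS_00035286) stood at 25.4 FPKM in gluteus, 4.06 in longissimus thoracis and 22.9 in scapula muscle, and intercostal muscle did not list it.

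The bicarbonate carriers SLC4A7 and SLC4A4, which move bicarbonate together with sodium, differed in where they were listed. Of 19 SLC4A4 transcripts, gluteus listed 2, intercostal muscle 4, and longissimus thoracis and scapula muscle 11 each, with summed levels of 43.4 FPKM in gluteus, 74.0 in intercostal muscle, 482 in longissimus thoracis and 305 in scapula muscle. All 19 are intronic, and of 26060 intronic transcripts of other genes these muscles listed 7321, 10043, 12121 and 15114. By the 2-fold rule 11 of the 19 were higher in longissimus thoracis and 10 in scapula muscle, where 37% and 45.1% of other genes' intronic and antisense transcripts were. None was listed in all 4 muscles. SLC4A7 had sums of 168 FPKM in gluteus, 500.1 in intercostal muscle, 298 in longissimus thoracis and 392 in scapula muscle, and 4 of its 20 transcripts were listed in every muscle. One of these (TCONS_00131425) stood at 30.0 FPKM in gluteus, 28.2 in intercostal muscle, 23.4 in longissimus thoracis and 12.9 in scapula muscle, with scapula muscle the lowest. SLC9A9, a sodium-proton exchanger of endosomes, had 24 transcripts of which 16 were listed in 1 muscle, and its sums were 109 FPKM in gluteus, 122 in intercostal muscle, 292 in longissimus thoracis and 335 in scapula muscle. Scapula muscle listed 15 of them, and 14 of the 24 were higher there by the 2-fold rule, beside 45.1% of other genes' transcripts.

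The phosphate importers SLC20A1 and SLC20A2 had 5 and 15 intronic transcripts. At SLC20A1 the transcript listed in every muscle (TCONS_00028711) was highest in longissimus thoracis, with 0.798 (0.0202 to 4.44) FPKM in gluteus, 4.02 (1.48 to 8.75) in intercostal muscle, 57.6 (48.4 to 68) in longissimus thoracis and 11.1 (6.68 to 17.3) in scapula muscle. The gluteus value is 1 read. At SLC20A2 the sums were 119 FPKM in gluteus, 281 in intercostal muscle, 342 in longissimus thoracis and 329.6 in scapula muscle. Gluteus was again the lowest, as it was for the sum over intronic transcripts of other genes. Listed for longissimus thoracis alone was TCONS_00157383, at 90.5 (64.4 to 124) FPKM. A further one (TCONS_00157393) had 87.7 FPKM there and 37.6 in scapula muscle, while TCONS_00157390 was missing from gluteus alone and ran from 18.9 to 38.7 FPKM elsewhere. The transcript TCONS_00157394, listed in every muscle, stood at 26.1 FPKM in gluteus, 59.5 in intercostal muscle, 54.3 in longissimus thoracis and 62.9 in scapula muscle.

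Antisense transcripts of the ion carriers were few, 8 in all. Opposite SLC12A2, the sodium-potassium-chloride cotransporter that sets cell volume, the level stood at 74.3 (64.2 to 85.5) FPKM in gluteus, 19.0 (14.4 to 24.5) in intercostal muscle, 109 (100.2 to 119) in longissimus thoracis and 55.5 (48.1 to 63.8) in scapula muscle. No interval overlaps another, and intercostal muscle was the lowest. An intronic transcript of this gene (TCONS_00216936) had 84.7 (65.1 to 108) FPKM in longissimus thoracis and 1 read in scapula muscle. Opposite SLC9A2, a sodium-proton exchanger, the order was different, with 289 (268 to 311) FPKM in gluteus, 164 (149.9 to 179.6) in intercostal muscle, 92.1 (83.7 to 101) in longissimus thoracis and 123 (112 to 136) in scapula muscle. No interval overlaps another here either, and gluteus was the highest. Opposite SLC9A5, a further exchanger of this family, the level ran from 26.3 FPKM in scapula muscle to 50.3 in gluteus, and longissimus thoracis did not list it.

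Intercostal muscle alone listed 4 of the 40 antisense carrier transcripts, beside 73 of 2476 antisense transcripts of other genes. Of the 4, that opposite SLC26A7, an anion exchanger, had 112 (75.6 to 160.0) FPKM. Those opposite SLC10A5 and SLC10A6, of the bile acid carrier family, had 47.9 (27.9 to 76.7) and 33.1 (15.9 to 60.9). The fourth, opposite SLC9A8, had 5 recovered reads, which is a lower bound. At SLC24A5, a sodium-calcium exchanger known from pigment cells, 8 intronic transcripts were listed, 7 of them at 1 locus. Their sums were 150.3 FPKM in gluteus, 211 in intercostal muscle, 51.6 in longissimus thoracis and 132 in scapula muscle. One (TCONS_00023757) was listed for intercostal muscle alone, at 93.9 (61.9 to 137) FPKM, and another (TCONS_00023759) stood at 53.6 FPKM in gluteus, 53.3 in intercostal muscle and 2.91 in scapula muscle, and longissimus thoracis did not list it.

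**Figure D4:**
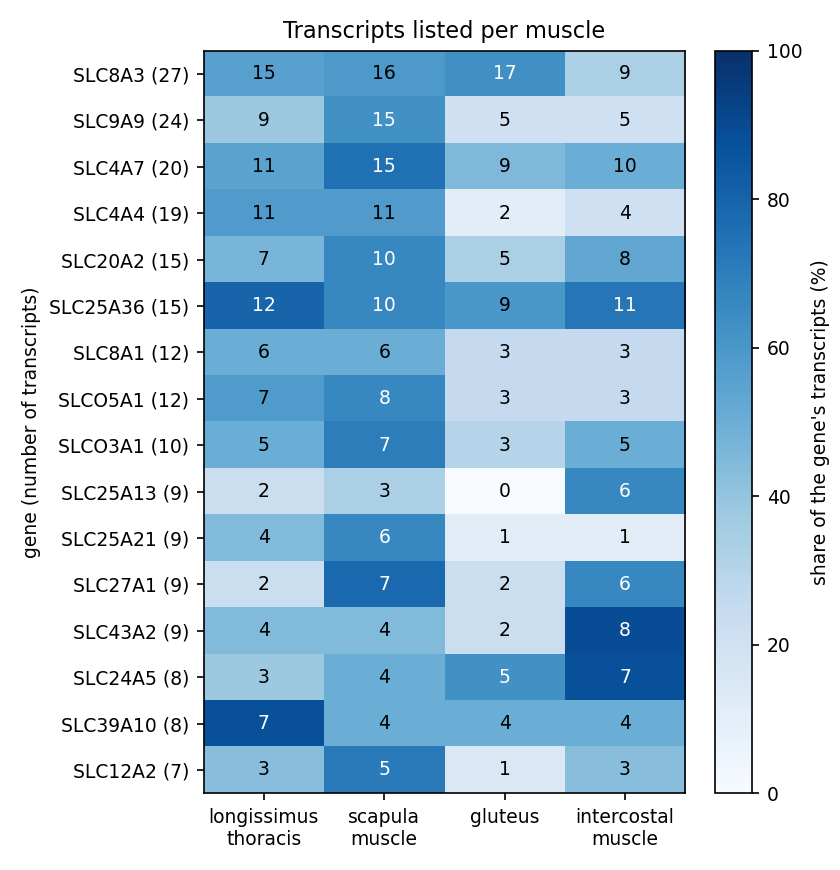
Number of transcripts listed per muscle for the 16 carrier genes with the most transcripts, with the colour giving the share of the gene's transcripts. SLC4A4 goes from 11 in longissimus thoracis and in scapula muscle to 2 in gluteus, SLC25A13 has none in gluteus, and SLC43A2 has 8 of 9 in intercostal muscle. Of 28536 intronic and antisense transcripts of other genes, 9176 were listed for gluteus, 11949 for intercostal muscle, 13906 for longissimus thoracis and 17192 for scapula muscle.

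Amino acid carriers had 54 transcripts at 17 genes, with summed levels from 617 FPKM in gluteus to 1275 in longissimus thoracis. Of the 54, 51 were intronic, and intronic transcripts of other genes also summed lowest in gluteus, at 292215 FPKM against 484384 in longissimus thoracis. SLC6A8 takes up creatine, the store of phosphate bonds in muscle. Opposite it the level stood at 149 (129 to 170.0) FPKM in gluteus, 71.5 (59.4 to 85.4) in intercostal muscle, 11.96 (8.23 to 16.8) in longissimus thoracis and 64.4 (53.6 to 76.7) in scapula muscle. Longissimus thoracis was the lowest and gluteus the highest, and the intervals of the other muscles overlap between them. SLC38A1 and SLC38A2 bring glutamine and alanine into cells with sodium. The transcript opposite SLC38A1 stood at 4.95 (1.61 to 11.6) FPKM in gluteus, 2.49 (0.514 to 7.29) in intercostal muscle, 5.14 (2.47 to 9.46) in longissimus thoracis and 48.6 (37.7 to 61.7) in scapula muscle, from 67 reads in scapula muscle and 3 in intercostal muscle.

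Of the 3 intronic transcripts of SLC38A2, one (TCONS_00198089) stood at 78.0 (56.4 to 105) FPKM in gluteus, 53.3 (37.1 to 74.1) in intercostal muscle, 137 (115 to 161) in longissimus thoracis and 49.1 (34.6 to 67.7) in scapula muscle. The second (TCONS_00198090) had 121 (94.1 to 152) FPKM in longissimus thoracis and 124 (92.3 to 163) in scapula muscle, against 22.3 (9.63 to 43.9) in intercostal muscle, and gluteus did not list it. The third (TCONS_00206238) was highest in gluteus, at 69.2 (41.6 to 108) FPKM, with 18.7 in scapula muscle. Transcripts within 1 gene thus stood highest in different muscles.

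SLC7A2, a carrier of cationic amino acids such as arginine, had an antisense transcript at 60.7 (48.1 to 75.5) FPKM in gluteus, 60.5 (49.0 to 74.0) in intercostal muscle, 34.3 (27.5 to 42.3) in longissimus thoracis and 35.0 (26.9 to 44.8) in scapula muscle. The lower pair, longissimus thoracis and scapula muscle, has intervals below those of the higher pair, gluteus and intercostal muscle. An intronic transcript of it (TCONS_00157113) stood at 30.8 FPKM in gluteus, 64.0 in longissimus thoracis and 42.6 in scapula muscle, and intercostal muscle did not list it. SLC7A8, a carrier of large neutral amino acids, had 1 transcript, with 13.7 FPKM in gluteus, 3.82 in intercostal muscle and 25.2 in longissimus thoracis, and scapula muscle did not list it. SLC3A2, the heavy chain of that carrier, had 3, and none was listed for intercostal muscle. Its transcript TCONS_00167819 stood at 9.18 FPKM in gluteus, 25.4 in longissimus thoracis and 29.1 in scapula muscle, and intercostal muscle did not list it. Longissimus thoracis alone listed TCONS_00167820, at 60.9 FPKM.

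SLC43A2, which lets large neutral amino acids leave the cell, had 9 intronic transcripts, 7 of them higher in intercostal muscle by the 2-fold rule, beside 26.8% of other genes' transcripts. Summed, they reached 14.0 FPKM in gluteus, 363 in intercostal muscle, 227 in longissimus thoracis and 202 in scapula muscle. Only the intercostal library listed TCONS_00098145, at 96.5 (64.6 to 139) FPKM, whereas TCONS_00098144 stood at 8.77 (3.22 to 19.1) FPKM in gluteus, 51.5 (37.1 to 69.7) in intercostal muscle, 107 (90.1 to 126) in longissimus thoracis and 14.98 (8.19 to 25.1) in scapula muscle. Another (TCONS_00095767) had 76.1 (51.0 to 109) FPKM in scapula muscle and 30.1 (14.4 to 55.3) in intercostal muscle. SLC36A4, a carrier of proline and tryptophan, had its most abundant intronic transcript in longissimus thoracis alone, at 118 (88.2 to 156) FPKM. An intronic transcript of SLC6A4, the serotonin transporter, had 64.5 (36.9 to 105) FPKM in scapula muscle and 13.9 (2.86 to 40.5) in intercostal muscle. One of SLC38A9, a lysosomal sensor of arginine, stood at 6.09 FPKM in gluteus, 1.28 in intercostal muscle, 26.1 in longissimus thoracis and 1.12 in scapula muscle, where the scapula and intercostal values are 1 read each.

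Monocarboxylate carriers, family SLC16, include the lactate carriers of muscle. SLC16A3, which exports lactate from fast fibres, had 1 intronic transcript, listed for gluteus alone with 6 recovered reads, a lower bound. SLC16A7, a carrier with high affinity for pyruvate and lactate, had 4, all listed for scapula muscle, 2 for intercostal muscle and none for the other muscles. Of 26060 intronic transcripts of other genes, scapula muscle listed 15114, intercostal muscle 10043, longissimus thoracis 12121 and gluteus 7321. The 4 of SLC16A7 summed to 124 FPKM in scapula muscle and 37.1 in intercostal muscle. No transcript was listed for SLC16A1, the widespread lactate carrier. The 2 most abundant transcripts of the family lay opposite SLC16A6 and SLC16A5, whose solutes are less well known. Opposite SLC16A6 the level stood at 332 (306 to 359.6) FPKM in gluteus, 140.3 (125 to 157) in intercostal muscle, 371 (351 to 392) in longissimus thoracis and 257 (238 to 278) in scapula muscle, lowest in intercostal muscle. Opposite SLC16A5 it was 233 (195 to 277) FPKM in gluteus, 38.6 (25.2 to 56.5) in intercostal muscle and 136 (111 to 165) in scapula muscle, and longissimus thoracis did not list it. The transcript opposite SLC16A10, an aromatic amino acid carrier, stood at 19.3 FPKM in intercostal muscle, 44.1 in longissimus thoracis and 15.5 in scapula muscle, and gluteus did not list it.

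Of 39 carriers listed for a known part in muscle, 23 had a transcript. Sugar carriers were sparse, with 15 transcripts at 8 genes of the families SLC2, SLC5 and SLC50. SLC2A4, the insulin-regulated glucose carrier of muscle, had none. SLC2A1, the basal glucose carrier, had 1 intronic transcript, listed for scapula muscle alone at 29.9 (14.9 to 53.6) FPKM. SLC2A3, a high affinity glucose carrier, had 3, with sums of 9.15 FPKM in gluteus, 11.9 in longissimus thoracis and 86.4 in scapula muscle, and intercostal muscle listed none. Of 3 transcripts of SLC2A12, a further glucose carrier, one (TCONS_00244649) was listed for intercostal muscle alone, at 93.9 (61.9 to 137) FPKM. SLC2A13, which carries myo-inositol, had 4. Of the 15, 8 (53.3%) were higher in scapula muscle by the 2-fold rule, a share near the 45.1% of other genes' transcripts. The antisense transcripts of this group were listed in 1 or 2 muscles, with 23.5 FPKM in scapula muscle and 20.1 in gluteus opposite SLC5A6, a vitamin carrier by function, and 14.5 in scapula muscle opposite SLC50A1.

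SLC27A1, which brings long-chain fatty acids into muscle, had 9 intronic transcripts, 7 listed for scapula muscle, 6 for intercostal muscle and 2 each for longissimus thoracis and gluteus. The sums were 10.3 FPKM in gluteus, 179 in intercostal muscle, 26.2 in longissimus thoracis and 161 in scapula muscle. By the 2-fold rule 7 were higher in scapula muscle and 5 in intercostal muscle, and 5 were lower in longissimus thoracis and 4 in gluteus. In other genes' intronic and antisense transcripts the shares were 45.1% and 26.8% for these higher calls and 21.2% and 25.5% for these lower calls. Unlisted values count as 0 in these calls, and the 7 higher in scapula muscle are the 7 listed there. The calls thus largely repeat the listing and are no separate result. The 1 transcript listed in every muscle (TCONS_00220972) stood at 8.01 (2.94 to 17.4) FPKM in gluteus, 10.1 (4.62 to 19.2) in intercostal muscle, 2.78 (0.756 to 7.11) in longissimus thoracis and 24.5 (15.8 to 36.1) in scapula muscle. At most 27 reads were recovered for any of the 9 in any library, and recovered reads are lower bounds. In the same 2 libraries where SLC27A1 was highest, the 1 transcript at the adipocyte marker PLIN4 was listed, at 19.2 FPKM in scapula muscle and 187 in intercostal muscle. The other 6 adipocyte markers had no transcript, and the part of fat cells in the SLC27A1 values was not tested. SLC22A5, which takes up the carnitine needed for fatty acid oxidation, had 6 transcripts with sums of 36.9 FPKM in gluteus, 157 in intercostal muscle, 53.7 in longissimus thoracis and 101 in scapula muscle. One of them (TCONS_00216892) varied little, with 12.5 (6.23 to 22.3) FPKM in gluteus, 15.2 (8.71 to 24.8) in intercostal muscle, 22.4 (15.8 to 30.7) in longissimus thoracis and 19.1 (12.1 to 28.7) in scapula muscle, and another (TCONS_00223874) had its lowest value in gluteus, 8.46 FPKM, and its highest in intercostal muscle, 67.5 FPKM.

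Zinc, iron and other metal carriers had 32 transcripts at 12 genes. SLC39A10 imports zinc. Its antisense transcript stood at 124 (98.9 to 153) FPKM in gluteus, 105 (84.1 to 129.9) in intercostal muscle, 213 (188 to 239) in longissimus thoracis and 101 (82.0 to 124) in scapula muscle, so longissimus thoracis was the highest and the other 3 overlap. Of its intronic transcripts, TCONS_00108378 and TCONS_00108377 were highest in gluteus, at 76.9 (48.8 to 115) and 59.2 (42.3 to 80.6) FPKM, and not listed for intercostal muscle. Opposite SLC39A6, another zinc importer, the level stood at 11.7 (6.03 to 20.4) FPKM in gluteus, 49.8 (38.1 to 64.0) in intercostal muscle, 51.0 (41.5 to 62.0) in longissimus thoracis and 7.12 (3.41 to 13.1) in scapula muscle, and the muscles fall into a higher and a lower pair whose intervals do not overlap. Opposite SLC30A9, of the zinc exporter family, it was 34.2 (14.8 to 67.5) FPKM in gluteus, 137 (96.6 to 187) in intercostal muscle, 131 (99.8 to 169) in longissimus thoracis and 107 (73.8 to 149) in scapula muscle, where the gluteus value is 8 reads.

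Other antisense transcripts of metal carriers had fewer reads. Opposite SLC39A9 the values were 22.1 FPKM in gluteus, 22.7 in intercostal muscle and 93.5 in scapula muscle, and longissimus thoracis did not list it. Opposite SLC30A5 they were 32.9 FPKM in gluteus, 18.0 in intercostal muscle, 31.6 in longissimus thoracis and 17.5 in scapula muscle. That opposite SLC30A1, the zinc exporter of the cell surface, had 58.1 (31.8 to 97.5) FPKM in longissimus thoracis alone. SLC40A1 (ferroportin), the iron exporter, had 3 intronic transcripts, with sums of 142 FPKM in intercostal muscle, 39.4 in longissimus thoracis and 13.3 in scapula muscle, and gluteus listed none. SLC39A8, a zinc and manganese importer, had 2 intronic transcripts, both in longissimus thoracis alone, at 25.2 and 15.7 FPKM. SLC41A1, a magnesium carrier, had 1, in intercostal muscle alone, at 18.3 FPKM.

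Among carriers of organic ions, SLCO5A1 had 12 transcripts and SLCO3A1 10, both of the organic anion family. Opposite SLCO5A1 the main transcript stood at 107 (96.9 to 119) FPKM in gluteus, 109 (99.1 to 119) in intercostal muscle, 67.5 (61.6 to 73.9) in longissimus thoracis and 33.1 (28.2 to 38.6) in scapula muscle, lowest in scapula muscle. The other antisense transcript of this gene (TCONS_00055361) was listed for scapula muscle, at 107 (79.7 to 142) FPKM, and for intercostal muscle, at 66.5 (43.8 to 96.7). The 2 antisense transcripts of 1 gene thus differed in order. At SLCO3A1 an intronic transcript (TCONS_00125477) stood at 115 (93.6 to 139) FPKM in gluteus, 33.7 (23.6 to 46.6) in intercostal muscle, 16.2 (10.8 to 23.4) in longissimus thoracis and 26.9 (18.5 to 37.8) in scapula muscle, with gluteus above the rest. A second of the same locus (TCONS_00121967) had 1 read in longissimus thoracis and 110.3 FPKM in gluteus, and the reads of these transcripts may overlap. The single intronic transcript of SLC22A15, a carrier of organic cations, was listed for gluteus alone, at 76.0 (44.3 to 122) FPKM.

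Carriers of nucleosides, nucleotide sugars and sugar phosphates had 22 transcripts at 12 genes. Opposite SLC35D2 the level stood at 71.1 (63.7 to 79.1) FPKM in gluteus, 99.2 (91.2 to 108) in intercostal muscle, 45.9 (41.6 to 50.5) in longissimus thoracis and 46.1 (41.0 to 51.6) in scapula muscle, highest in intercostal muscle. Opposite SLC35E4 it was 7.01 FPKM in gluteus, 67.7 in intercostal muscle, 10.02 in longissimus thoracis and 25.7 in scapula muscle, and opposite SLC35C2 it was 3.15 FPKM in gluteus, 13.2 in intercostal muscle and 39.2 in scapula muscle, and longissimus thoracis did not list it. Longissimus thoracis alone listed that opposite SLC37A3, at 25.0 (17.4 to 34.8) FPKM. One intronic transcript of SLC35A1, which carries CMP-sialic acid, had 105 (84.0 to 130.1) FPKM in longissimus thoracis and was not listed elsewhere. Its 85 recovered reads, a lower bound, were the most recovered for any carrier transcript listed in 1 muscle.

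The remaining groups were small. SLC18B1, a polyamine carrier of vesicles, had 4 intronic transcripts that summed to 32.0 FPKM in gluteus, 56.0 in intercostal muscle, 78.5 in longissimus thoracis and 215 in scapula muscle. One (TCONS_00239990) stood at 20.9 FPKM in intercostal muscle, 37.1 in longissimus thoracis and 47.8 in scapula muscle, and gluteus did not list it. Opposite SLC17A5, which exports sialic acid from lysosomes, the level stood at 22.3 FPKM in intercostal muscle, 11.2 in longissimus thoracis and 66.6 in scapula muscle, and gluteus did not list it. SLC23A2, a vitamin C carrier, had 4 intronic transcripts, all listed for scapula muscle alone. Of 26060 intronic transcripts of other genes, 5469 were listed for scapula muscle alone. SLC44A2, of the choline carrier family, had 1 intronic transcript at 52.8 FPKM in gluteus, 14.8 in intercostal muscle and 66.6 in scapula muscle, and longissimus thoracis did not list it. SLC44A1, a choline carrier, stood at 19.1 FPKM in intercostal muscle and 11.8 in longissimus thoracis, and gluteus and scapula muscle did not list it.

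How far the muscles shared these transcripts was examined next. Of the 432, 59 (13.7%) were listed in all 4 muscles, 48 in 3, 97 in 2 and 228 (52.8%) in 1. Of the intronic and antisense transcripts of other genes, 11.1% were listed in all 4 and 51.8% in 1. By class, 57.5% of the 40 antisense carrier transcripts were listed in all 4, beside 56.4% for other genes, and 9.18% of the 392 intronic ones, beside 6.84%. Gluteus alone listed 23, intercostal muscle 46, longissimus thoracis 82 and scapula muscle 77 of the 432. In the same order, 1485, 2484, 5196 and 5617 of the 28536 intronic and antisense transcripts of other genes were listed in that muscle alone. With transcripts summed by gene, 39 of the 118 genes were listed in 1 muscle, and no such share over other genes is given here. Longissimus thoracis listed 209 of the carrier transcripts, scapula muscle 262, gluteus 141 and intercostal muscle 190. These were 0.669%, 0.706%, 0.679% and 0.725% of all transcripts that each library listed. Gluteus had the smallest library, but the largest, longissimus thoracis, listed fewer than scapula muscle.

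Of the 59 transcripts listed in every muscle, the Poisson intervals of the highest and the lowest muscle were apart for 51 (86.4%), where this held for 89.2% of all 7188 transcripts listed in every muscle and for 91% of the intronic and antisense ones of other genes. The median ratio of highest to lowest muscle was 3.28 for the 23 antisense ones, beside 2.94 for antisense transcripts of other genes, and 6.07 for the 36 intronic ones, beside 6.53. The highest muscle was longissimus thoracis for 17 of the 59, scapula muscle for 14, gluteus for 16 and intercostal muscle for 12. Among the 3179 intronic and antisense transcripts of other genes listed in every muscle, it was these muscles for 1033, 698, 728 and 720. Across these 59, Spearman's rank correlation of log2(FPKM + 1) was between 0.41 (longissimus thoracis with gluteus) and 0.67 (scapula muscle with gluteus). Over other genes these pairs had 0.52 and 0.61. There the lowest was 0.48 (longissimus thoracis with scapula muscle) and the highest 0.69 (scapula muscle with intercostal muscle). These are correlations across transcripts, several of which share a gene, and transcripts are not independent replicates. Each library was also checked for carrier transcripts with at least 20 reads in all of its 3 counterparts. For longissimus thoracis there were 29, and it did not list 3 of them (opposite SLC16A5 and SLC9A5, and the intronic TCONS_00236660 of SLC25A37), where 5.68% of all such transcripts were not listed. The scapula, gluteus and intercostal libraries listed all of theirs, 24, 29 and 24 in number, where 0.219%, 2.31% and 0.841% of all such transcripts were not listed.

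Each muscle was then compared with the median of the other 3 by the 2-fold rule, with unlisted transcripts entered as 0. Of the 432, 82 were listed for longissimus thoracis alone and 77 for scapula muscle alone, so the counts mix listing with measured level. In longissimus thoracis 145 of the 432 (33.6%) were higher and 99 (22.9%) lower, against 37% and 21.2% of other genes' intronic and antisense transcripts. In scapula muscle 194 (44.9%) were higher and 34 (7.87%) lower, against 45.1% and 11.8%. The other comparisons lay as near to theirs. In gluteus 72 (16.7%) were higher and 111 (25.7%) lower, against 18.2% and 25.5%. In intercostal muscle 118 (27.3%) were higher and 78 (18.1%) lower, against 26.8% and 19.3%. The shares over all 63845 transcripts were 37.2%, 43.2%, 18.6% and 26.4% higher and 21.3%, 11.3%, 23.7% and 17.9% lower in the same order of muscles. The carrier shares lie within 4 percentage points of the background in every muscle and direction, so these counts are not a result about carriers as a whole. Without longissimus thoracis among the other muscles, 238 were lower in gluteus, 183 in intercostal muscle and 111 in scapula muscle (55.1%, 42.4% and 25.7%), beside 55.4%, 46.4% and 28.5% of other genes' transcripts. The median of 2 muscles is their mean, which exceeds 0 wherever either of them lists a transcript. The median ratio over the 432 was 0 on the log2 scale in each muscle, as it was over all transcripts. With the 59 present in every library, 8 were higher and 19 lower in gluteus, 8 and 10 in intercostal muscle, 13 and 16 in longissimus thoracis, and 11 and 9 in scapula muscle. The shares over other genes' transcripts listed in every muscle were 16.7% and 24.6%, 16.6% and 20.9%, 24.9% and 23.6%, and 19.8% and 18.5%. Of the 40 antisense transcripts, 4 were higher and 10 lower in gluteus, 9 and 5 in intercostal muscle, 7 and 10 in longissimus thoracis, and 11 and 2 in scapula muscle. Among antisense transcripts of other genes the shares were 20.8% and 18.5%, 20% and 16.9%, 21.9% and 30.9%, and 27.5% and 14.2%. Among the 59 listed in every muscle, the medians were -0.03 in gluteus, 0.13 in intercostal muscle, -0.05 in longissimus thoracis and -0.13 in scapula muscle, beside -0.08, 0.03, 0.07 and -0.01 over all 7188.

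**Figure D5:**
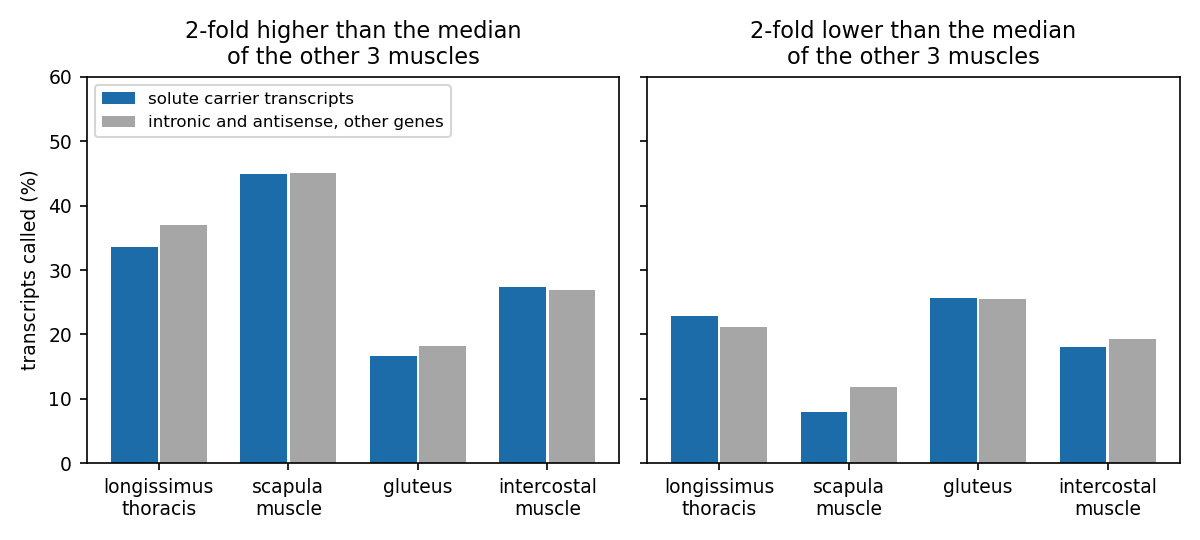
Share of the 432 carrier transcripts called 2-fold higher or lower than the median of the other 3 muscles, beside the share over intronic and antisense transcripts of other genes. In each muscle and direction the paired bars lie within 4 percentage points of each other, the widest gap being for lower calls in scapula muscle, 7.87% against 11.8%.

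Other transporter genes, chosen for comparison, were counted in the same way. ABC transporters, pumps driven by ATP, had 100 transcripts at 13 genes, of which 14% were higher in gluteus, 35% in intercostal muscle, 24% in longissimus thoracis and 49% in scapula muscle, and 26%, 8%, 28% and 12% were lower. P-type ATPases, the sodium, calcium and lipid pumps, had 140 at 21 genes, with 20.7%, 16.4%, 47.9% and 41.4% higher and 22.9%, 23.6%, 14.3% and 11.4% lower. Genes of carrier partners and of the traffic of the insulin-regulated glucose carrier, of which SLC9A3R1 is also among the 118 genes above, had 118 transcripts at 9 genes, with 22.0%, 28.8%, 33.1% and 39.0% higher and 19.5%, 17.8%, 19.5% and 13.6% lower. Over all transcripts the shares were 18.6%, 26.4%, 37.2% and 43.2% higher and 23.7%, 17.9%, 21.3% and 11.3% lower. Listed in all 4 muscles were 7%, 8.57% and 12.7% of the 3 lists. No list was tested against another.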

How the data were processed

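Total RNA of 4 muscles, 1 pool of 3 animals each, was sequenced on Illumina instruments. The deposited FPKM values were computed by the authors, 1 table per library, with class, gene and locus in each transcript's identifier. The submitters' processing notes name TopHat2 2.0.9, Cufflinks 2.1.1 and the bovine genome build UMD3.1, with no role or order. For the strand setting, the noncoding filters and the annotation version, nothing is given in the sources used here.

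Each FPKM value was matched, to a relative error of 1e-11, by whole numbers for reads and transcript length, at 1 library total per table. The smallest such number was kept, so read numbers and lengths are lower bounds, and the 95% Poisson intervals are the widest the values allow. The recovery was tested on simulated data. Transcripts of a locus may share reads, and reads without molecular identifiers may be copies, so intervals cover counting error only.

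Muscles were compared as log2((FPKM + 1)/(median of the other 3 + 1)), with an unlisted transcript entered as 0. A transcript was higher or lower where this was at least 1 in size and some library had 1 FPKM or more. This scale understates the fold of low values. With 1 library per muscle no test was run. Carriers were grouped by family number, except that SLC9A3R1 and SLC7A6OS were set apart as not carriers. Gene names were matched to RefSeq, assembly ARS-UCD2.0, 117 by symbol and 1 by synonym, and all 118 genes are protein-coding there.

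Named were the 10 transcripts of highest mean, the 5 highest and 5 lowest ratios per muscle among those beyond each other muscle with 10 or more reads in some library, the 5 genes with the most transcripts, all antisense transcripts, the 5 least varied and the carriers of a list for muscle. The values of 1 gene that this rule names are not reported here. SLC4A4, SLC9A9, SLC25A13, SLC25A17, SLC25A21, SLC23A2, SLC40A1 and SLC2A13, and further transcripts of named genes, were described after their values were seen where this rule does not hold them. The transcripts and lists were chosen with earlier results of these data known. Alternatives covered the pseudocount, the low-value filter, the scaling, the reference for a ratio, the unit and the class. Leaving out the genes that are not carriers, or longissimus thoracis, was chosen after seeing the data. Python 3.11.15 with NumPy 2.4.6, pandas 2.3.3, SciPy 1.17.1 and matplotlib 3.10.9 was used.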

Additional observations from a re-analysis of the deposited data

How the results depend on the processing

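Of 100 alternative values, 62 stayed within 1.5 times of the main count or within counting error of the main share, and 38 moved. Of the 38, 9 came with genes as units and 8 with the 59 transcripts listed in all 4 muscles. Counts over so few units are smaller by construction, so the tally does not measure dependence on processing alone. Counts of higher and lower transcripts stayed within 1.5 times under pseudocounts of 0.1 and 5, without the low-value filter, with 10 reads as the minimum, under median-ratio scaling (which shifted the median ratio by at most 0.08 on the log2 scale), without antisense transcripts and without the genes that are not carriers. Beyond each of the other 3 muscles by 2-fold, 36 of the 432 were higher and 26 lower in gluteus, 64 and 17 in intercostal muscle and 112 and 2 in scapula muscle, and 27 were lower in longissimus thoracis, since this rule is stricter by construction. With genes as units, of which there are 118, 15 were higher and 39 lower in gluteus, 25 and 26 in intercostal muscle, 34 and 22 in longissimus thoracis, and 42 and 6 in scapula muscle. No share over other genes was computed for the stricter rule or for genes as units. These counts are therefore not a result about carriers. Among the 59 transcripts listed in all 4 muscles, 8 were higher and 19 lower in gluteus, 8 and 10 in intercostal muscle, 13 and 16 in longissimus thoracis, and 11 and 9 in scapula muscle. Without longissimus thoracis, 238 were lower in gluteus, 183 in intercostal muscle and 111 in scapula muscle. Listed in all 4 muscles were 37 at 10 FPKM or more in each library and 36 without antisense transcripts. Listed in 1 muscle were 140 with 10 or more recovered reads and 39 genes. Recovered reads are lower bounds, so this minimum can also drop transcripts that had more reads. The FPKM share of the carriers was 1.08%, 1.08%, 0.921% and 1.03% in gluteus, intercostal muscle, longissimus thoracis and scapula muscle without the 10 most abundant transcripts of each library, and 0.758%, 0.790%, 0.674% and 0.802% without antisense transcripts. No paired analysis was possible because each muscle is 1 pooled library. The median listed carrier transcript has 10 recovered reads in gluteus, 13 in intercostal muscle, 19 in longissimus thoracis and 14 in scapula muscle, all lower bounds. At such numbers single values of most transcripts are imprecise, and not being listed does not show absence.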
